A study of Rattus norvegicus with 6 samples.

Results

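The genes that make, break down and read cyclic AMP and cyclic GMP were examined in the testes of diabetic and non-diabetic rats. They were taken by their symbols: every adenylyl cyclase (Adcy), phosphodiesterase (Pde), guanylyl cyclase (Gucy), catalytic or regulatory subunit of protein kinase A (Prkac, Prkar) and cyclic GMP-dependent protein kinase (Prkg) in the gene table. The rule found 51 genes among the 35291 rows of the table. No measured value entered it. It also took in Pde4dip, which encodes myomegalin, a scaffold protein that binds PDE4D and is not itself a phosphodiesterase.

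RNA-Seq was performed on 6 samples of whole testicular tissue from Sprague-Dawley rats, an outbred strain, with 3 samples in each group, and each sample is called a rat here although the labels do not say that the samples came from separate animals. The diabetic rats had been fed a high-fat diet and then received a single intraperitoneal injection of streptozotocin (STZ), a toxin of pancreatic beta cells, at 35 mg/kg. The non-diabetic rats received citrate buffer, and whether they were also fed the high-fat diet was not stated in the sources used here. Testes were taken 8 weeks after the injection, and the comparison asked which transcripts differ in the testis with experimental diabetes.

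Adenylyl cyclases convert ATP to cyclic AMP, guanylyl cyclases convert GTP to cyclic GMP, and phosphodiesterases hydrolyse both. Cyclic AMP binds the regulatory subunits of protein kinase A (PKA), which then free the catalytic subunits. In Leydig cells this chain runs from luteinizing hormone to steroid synthesis, in Sertoli cells from follicle-stimulating hormone, and in sperm from bicarbonate, through the soluble adenylyl cyclase, to motility and capacitation.

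Levels were FPKM, fragments scaled to transcript length and library size, so that levels of different genes can be set side by side. The columns summed to 461428 to 464969 FPKM in the diabetic rats and 453304 to 478211 in the non-diabetic rats. The markers of elongating spermatids, such as the protamines, summed to between 11762 and 13850 FPKM over the 6 rats, so the defining transcripts of testis were present in each, and the groups overlapped. The markers of Leydig cells, the steroid-producing cells of the interstitium, differed. The 9 genes measured of that list summed to 53.4, 43.1 and 75.5 FPKM with diabetes and to 128, 159 and 120 FPKM without, with no overlap. Of these 9 genes, 8 had an unadjusted p below 0.05 in the limma test, all lower in the diabetic rats, and Nr5a1 did not. Over all genes tested that share was 7.46%, with 4.99% in the lower direction. Only Cyp17a1 had an adjusted p below 0.05 (limma, adjusted p = 0.0415), and the groups overlapped for Hsd17b3, Hsd11b1 and Nr5a1. In whole tissue, fewer cells of a type and less RNA per cell cannot be told apart.

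A total of 33 of the 51 genes reached a mean of 0.5 FPKM and were tested, and 18 did not. Of all 51 genes, 29 averaged at least 1 FPKM, 14 at least 10 FPKM and 2 at least 100 FPKM. Pde6g was listed at 0 in every rat. The most abundant transcript was Prkar1a, whose lowest value lay above the highest value of Adcy10, the second in order. Adcy10 and Pde1a had overlapping ranges. Pde1a stood apart from Prkar2a, and Prkar2a from Prkar1b. Prkar1b, Pde8a and Prkaca overlapped with their neighbours in that order, and the next 5 genes (Pde4a, Pde7b, Pde10a, Pde4dip and Pde3b) also overlapped each with the next.

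**Figure D1:**
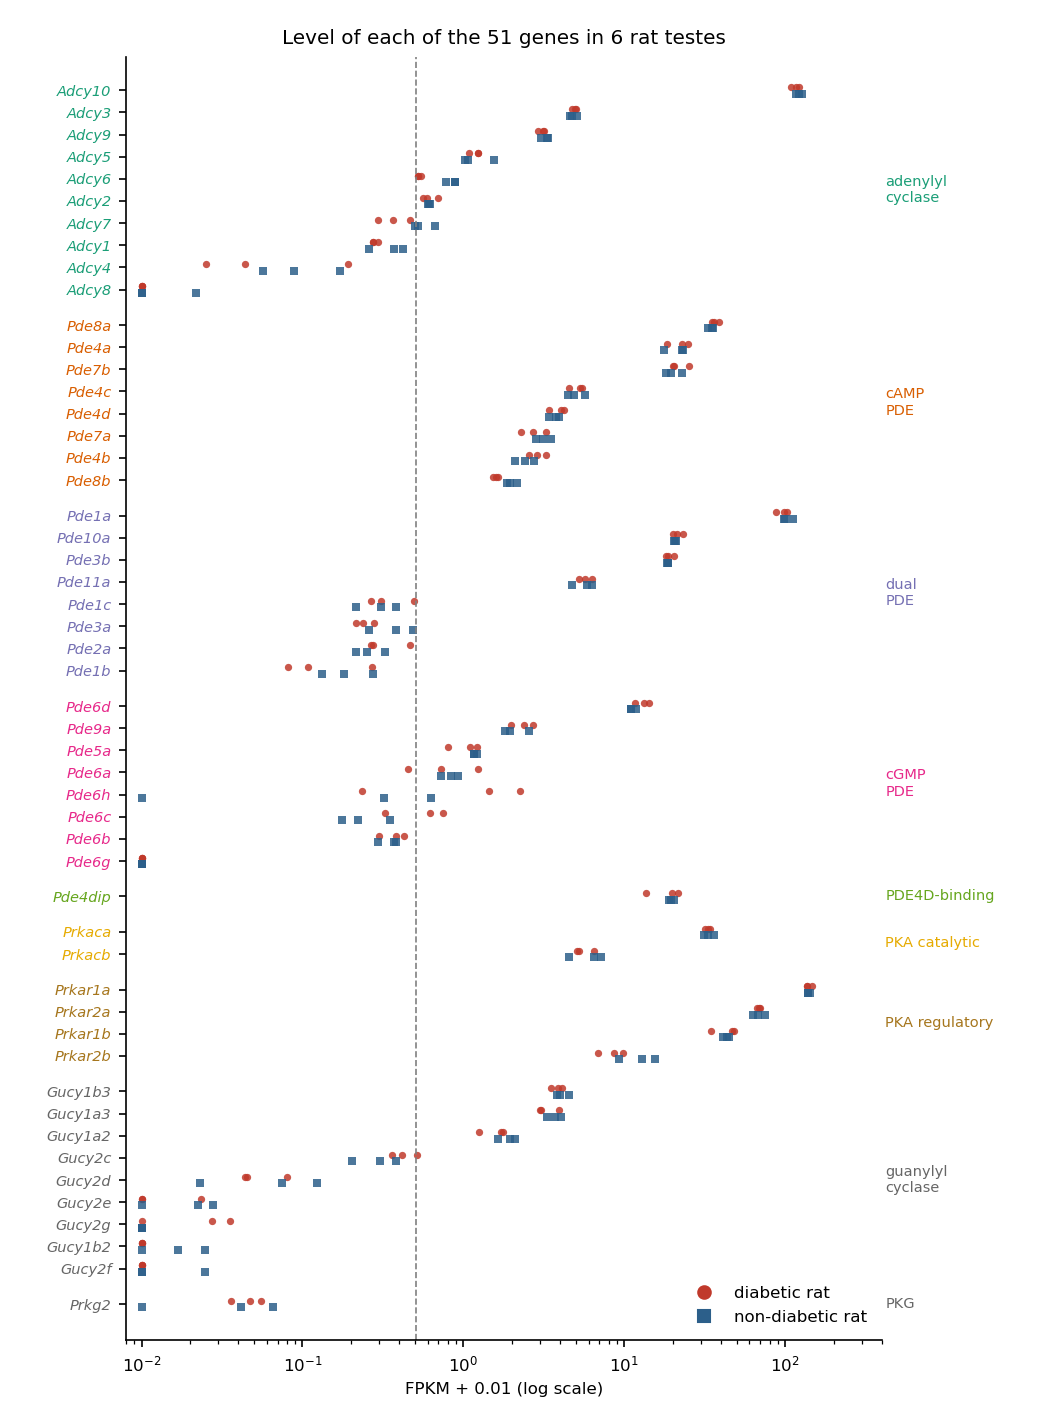
Level of each of the 51 genes in each rat, as FPKM + 0.01 on a log axis, grouped by role, with circles for the 3 diabetic rats and squares for the 3 non-diabetic rats, and a dashed line at the mean of 0.5 FPKM needed for a test. Prkar1a, Adcy10 and Pde1a stood highest, and in most rows the symbols of both groups covered the same range.

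None of the 33 genes tested met the criterion of the study, a log2 fold change of 1 or more in size together with an unadjusted p below 0.05, against 1.24% of the 20338 genes tested. None had an adjusted p below 0.05 in limma, against 0.0344% of all genes, and the smallest adjusted p was 0.629. At an unadjusted p below 0.05 there were 2 genes, Prkar2b and Adcy6, both lower in the diabetic rats. That is 2 of 33, against 7.46% of all genes tested in either direction, 4.99% in the lower direction and 2.47% in the higher. No overlap between the groups was seen for 2 of the 33 genes, Adcy6 and Pde8b, both lower, against 13.0% of all genes, 8.42% lower and 4.56% higher. Both counts were close to or below these background shares.

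Most of the differences were small in size. The median log2 fold change (diabetic over non-diabetic, on the log2(FPKM + 0.1) scale) was -0.0072 over the 33 genes and -0.021 over all genes tested, with 15 genes positive and 18 negative. For 27 of the 33 genes the log2 fold change was under 0.25 in size, and the share over all genes was not computed for this limit. The 95% interval of the difference lay within 1 on the log2 scale for 30 of the 33 genes, against 80.9% of all genes, and within 0.5 for 19, against 50.9%. Adcy6, Pde6h and Prkar2b were the 3 whose interval reached beyond 1.

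**Figure D2:**
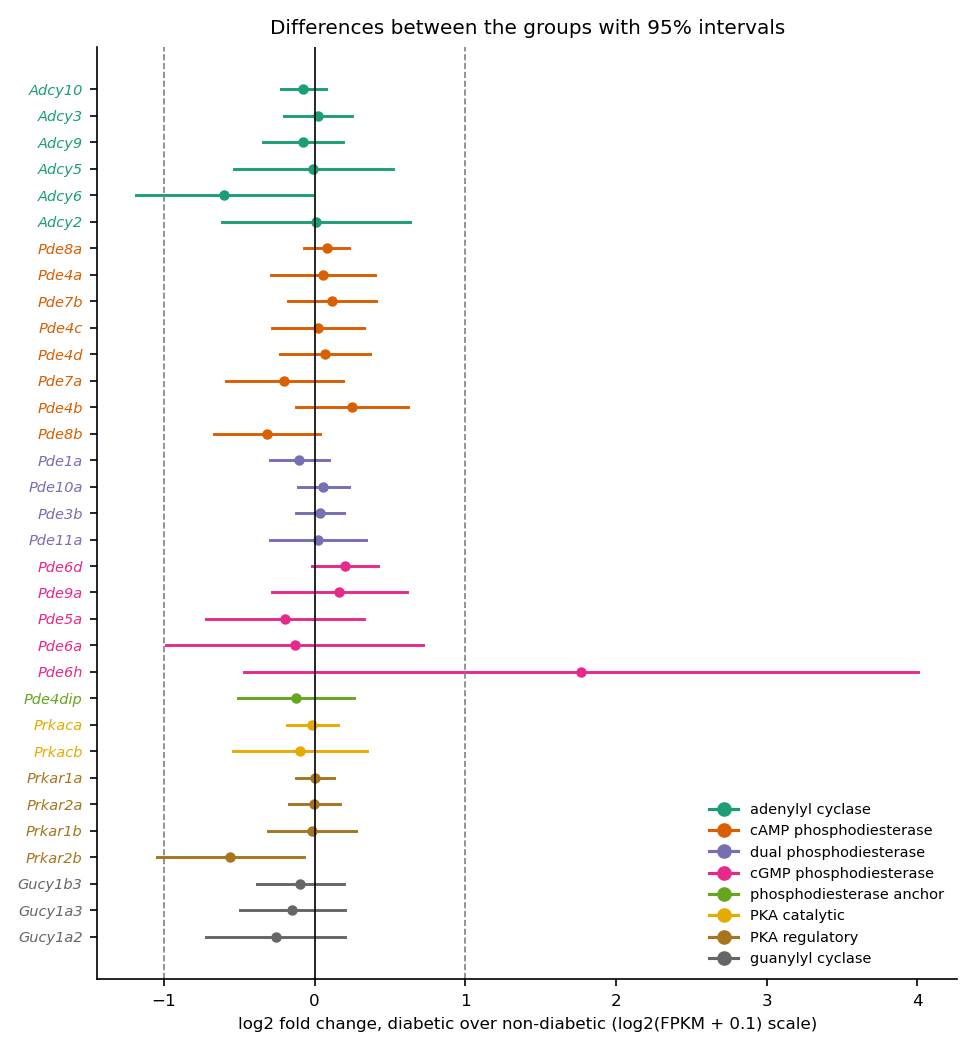
Log2 fold change (diabetic over non-diabetic, log2(FPKM + 0.1) scale) of the 33 genes tested, with 95% intervals from limma, coloured by role; dashed lines mark a log2 fold change of 1 in size. Of the 33 intervals 30 lay within these lines, and those of Prkar2b and Adcy6 lay below 0 throughout.

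Adenylyl cyclases came first in the chain, and 6 of their 10 genes were tested. Adcy10 (ENSRNOG00000053410), the soluble cyclase of sperm that bicarbonate stimulates, measured 123, 109 and 116 FPKM with diabetes and 127, 122 and 117 FPKM without. These ranges overlapped, and the log2 fold change was -0.076 with a 95% interval of -0.22 to 0.073 (limma, adjusted p = 0.861). Adcy10 made up 91.9% ± 0.420 (SD, n = 3) of the summed FPKM of the cyclases tested in the diabetic rats and 92.0% ± 0.106 (SD, n = 3) in the non-diabetic rats.

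The membrane-bound cyclases, which G proteins control, were all far lower. Adcy3, best known from olfactory cilia, measured 4.90, 5.03 and 4.70 FPKM with diabetes and 5.04, 4.74 and 4.62 FPKM without, a log2 fold change of 0.022 with a 95% interval of -0.20 to 0.25. Adcy9 measured 3.17, 2.91 and 3.11 FPKM against 3.32, 3.34 and 3.05 FPKM, a log2 fold change of -0.077 with an interval of -0.35 to 0.19. Both pairs of groups overlapped, as did those of Adcy5 and Adcy2, which averaged 1.19 and 0.604 FPKM over all rats.

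Adcy6 (ENSRNOG00000054757), a cyclase inhibited by calcium, measured 0.509, 0.514 and 0.536 FPKM with diabetes and 0.769, 0.874 and 0.875 FPKM without. Every diabetic rat was below every non-diabetic rat. The means were 0.520 ± 0.0144 and 0.839 ± 0.0604 FPKM (SD, n = 3 each), a difference of -38.1%. The log2 fold change was -0.60 (SE 0.25, 95% interval -1.18 to -0.014) with a limma p of 0.0460 and an adjusted p of 0.665. In the two-sided exact permutation test p was 0.1, the smallest value that 3 against 3 rats allow. Adcy6 lay close to the limit for testing. Its p in limma was 0.0729 to 0.109 when any 1 rat was left out. With a pseudocount of 1 in place of 0.1 its log2 fold change was -0.27 (adjusted p = 0.647 in limma), and the unadjusted limma p stayed below 0.05. Its adjusted p in limma was 0.393 with protein-coding genes only and 0.198 with eBayes without the trend. Without the trend the SE of Adcy6 was 0.084 in place of 0.25, and its unadjusted limma p was 0.000468. The size of its p therefore depended on how limma set the variance of low genes as well as on single rats. Over all alternatives in which Adcy6 was tested, the adjusted p in limma lay between 0.198 and 0.910.

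Just below the limit, Adcy7 measured 0.457, 0.354 and 0.286 FPKM with diabetes and 0.513, 0.489 and 0.654 FPKM without, again without overlap. The summed level of Adcy1 to Adcy9, tested or not, was 11.1, 11.1 and 10.7 FPKM with diabetes and 12.2, 11.6 and 11.2 FPKM without. The groups did not overlap (exact permutation p = 0.1, adjusted p = 0.75 over the 15 sums and ratios compared). Of these 15, 2 did not overlap, this sum and the ratio of Pde8a to Pde8b, beside 13.0% of all genes tested whose FPKM did not overlap. The sum includes Adcy6 and Adcy7, so it is not separate from their values. Adcy1, Adcy4 and Adcy8 averaged 0.305, 0.0861 and 0.00197 FPKM.

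Phosphodiesterases that hydrolyse cyclic AMP alone were all measured above the limit, 8 of 8. Pde8a (ENSRNOG00000019005), a high-affinity enzyme that rolipram does not inhibit, was the highest of them and measured 38.5, 36.2 and 35.1 FPKM with diabetes and 35.1, 33.1 and 35.6 FPKM without. Its log2 fold change was 0.080 with a 95% interval of -0.072 to 0.23. Its close relative Pde8b (ENSRNOG00000010280) was lower in the diabetic rats, at 1.58, 1.51 and 1.64 FPKM against 2.16, 1.95 and 1.87 FPKM. The groups of Pde8b did not overlap, and the log2 fold change was -0.32 (SE 0.15, 95% interval -0.67 to 0.036; limma, adjusted p = 0.713; exact permutation p = 0.1).

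The ratio of Pde8a to Pde8b therefore differed without overlap. It was 24.4, 23.9 and 21.4 in the diabetic rats and 16.3, 17.0 and 19.1 in the non-diabetic rats (exact permutation p = 0.1, adjusted p = 0.75 over the 15 sums and ratios). A ratio within a rat does not depend on the scaling between rats.

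The PDE4 family, the target of rolipram, and the PDE7 family overlapped throughout. Pde4a measured 24.98, 22.8 and 18.4 FPKM with diabetes and 22.9, 23.0 and 17.7 FPKM without, with a log2 fold change of 0.057 and an interval of -0.29 to 0.40. Pde7b measured 25.3, 20.0 and 20.5 FPKM against 19.6, 23.0 and 18.2 FPKM, with a log2 fold change of 0.12 and an interval of -0.18 to 0.41. Among the other members of the families, Pde4b had the largest difference, 2.88 ± 0.339 against 2.41 ± 0.332 FPKM (SD, n = 3 each), or 0.25 as a log2 fold change with an interval of -0.12 to 0.62. Pde4c, Pde4d and Pde7a had log2 fold changes of 0.023, 0.067 and -0.20.

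Enzymes that accept both nucleotides were split by level. Pde1a, which calmodulin activates and which occurs in the sperm flagellum, measured 103, 87.8 and 98.0 FPKM with diabetes and 112, 97.8 and 100.2 FPKM without. The ranges overlapped, with a log2 fold change of -0.10 and an interval of -0.30 to 0.094. Pde10a measured 23.1, 21.1 and 20.2 FPKM against 20.3, 20.7 and 20.8 FPKM, a log2 fold change of 0.058 (interval -0.11 to 0.23). Pde3b, the phosphodiesterase through which insulin lowers cyclic AMP in fat cells, measured 18.2, 18.8 and 20.3 FPKM against 18.4, 18.7 and 18.7 FPKM, a log2 fold change of 0.037 (interval -0.12 to 0.20). Pde11a averaged 5.70 and 5.62 FPKM in the diabetic and non-diabetic rats. The other 4 enzymes of this kind, Pde1b, Pde1c, Pde2a and Pde3a, averaged between 0.165 and 0.319 FPKM and were not tested.

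The genes named for phosphodiesterases of cyclic GMP were low except for Pde6d. Pde6d (ENSRNOG00000018610) encodes a carrier of prenylated proteins and was the only member of the PDE6 group at a substantial level, with 11.7, 14.3 and 13.2 FPKM with diabetes and 11.1, 10.95 and 11.9 FPKM without. The lowest diabetic rat overlapped with the highest non-diabetic rat, and the log2 fold change was 0.20 (SE 0.093, interval -0.017 to 0.42; limma, adjusted p = 0.703). Pde9a measured 2.38, 1.98 and 2.71 FPKM against 1.93, 1.81 and 2.55 FPKM. Pde5a, the target of sildenafil, measured 1.08, 0.788 and 1.20 FPKM against 1.148, 1.21 and 1.16 FPKM, a log2 fold change of -0.20 with an interval of -0.72 to 0.33.

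The PDE6 enzyme itself belongs to photoreceptors. Pde6h, an inhibitory subunit of cones, had the largest difference of the 33 genes and the least precise. It measured 0.224, 2.24 and 1.42 FPKM with diabetes and 0.311, 0.616 and 0 FPKM without, a log2 fold change of 1.77 with an interval of -0.47 to 4.003. Pde6h reached the limit for testing only through the diabetic rats, which averaged 1.30 FPKM against 0.309 FPKM, so its difference was favoured by that limit and is given as a description. Without diabetic rat 1 its log2 fold change was 2.61 (limma, adjusted p = 0.619), past the study's criterion, without diabetic rat 2 it was 1.19, and without non-diabetic rat 3 it was 0.95. Pde6c, a catalytic subunit of cones and below the limit for testing, measured 0.315, 0.733 and 0.611 FPKM against 0.341, 0.167 and 0.210 FPKM, with overlap.

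Pde4dip, the scaffold, measured 21.5, 19.7 and 13.6 FPKM with diabetes and 20.3, 19.4 and 18.9 FPKM without. Diabetic rat 3 stood alone at the low end, and without it the log2 fold change was 0.075 in place of -0.12.

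The subunits of PKA were the most abundant group. Prkar1a (ENSRNOG00000049876), the type I alpha regulatory subunit, measured 146, 137 and 137 FPKM with diabetes and 143, 138 and 138 FPKM without. Its log2 fold change was 0.0022 with an interval of -0.12 to 0.13, so that a difference of more than 0.13 on this scale lay outside the interval. Prkar2a, the type II alpha subunit that A-kinase anchoring proteins hold along the sperm flagellum, measured 66.4, 70.0 and 69.2 FPKM against 63.5, 67.7 and 75.0 FPKM, with an interval of -0.17 to 0.17. Prkar1b measured 47.8, 46.5 and 34.8 FPKM against 41.2, 44.9 and 43.2 FPKM, with an interval of -0.31 to 0.27. Diabetic rat 3 was the lowest for Prkar1b as it was for Pde4dip.

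Prkar2b (ENSRNOG00000009079), the type II beta regulatory subunit that is prominent in brain and fat tissue, had the smallest p of the 33 genes. It measured 8.63, 6.85 and 9.77 FPKM with diabetes and 15.5, 13.0 and 9.27 FPKM without. Diabetic rat 3 lay above non-diabetic rat 3, so the groups overlapped by that pair, and the other 2 non-diabetic rats were above all diabetic rats. The means were 8.42 ± 1.47 and 12.6 ± 3.15 FPKM (SD, n = 3 each), a difference of -33.1%. The log2 fold change was -0.56 (SE 0.21, 95% interval -1.05 to -0.070) with a limma p of 0.0303 and an adjusted p of 0.629, and the exact permutation p was 0.2. The value rested on single rats: without non-diabetic rat 1 the log2 fold change was -0.39, and without non-diabetic rat 3 it was -0.76. The adjusted p in limma lay between 0.405 and 0.903 over all alternatives, and the unadjusted p was above 0.05 when diabetic rat 1 or 2 or non-diabetic rat 1 or 2 was left out.

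**Figure D3:**
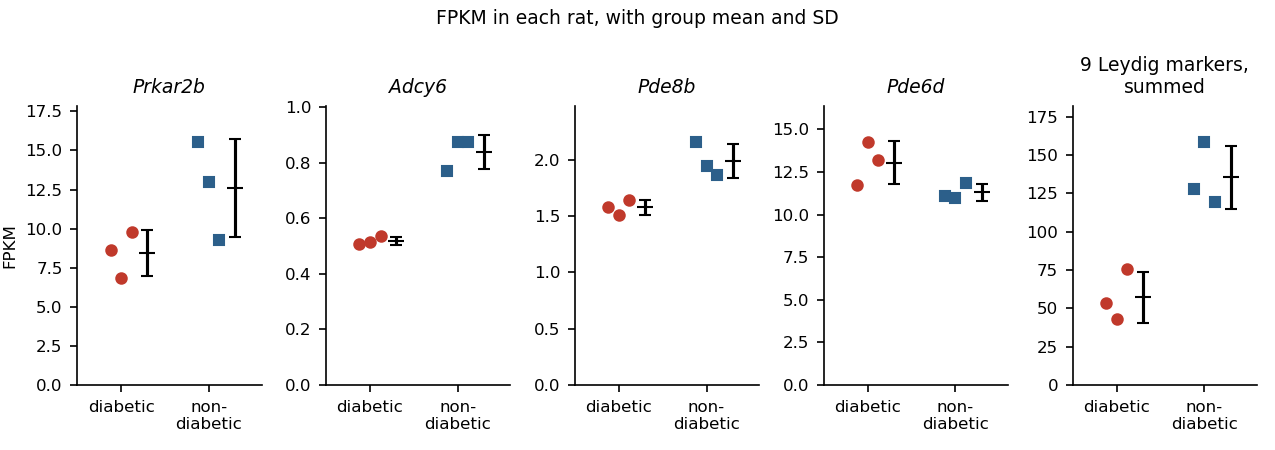
FPKM in each rat for Prkar2b, Adcy6, Pde8b and Pde6d and the summed FPKM of the 9 Leydig markers, each on its own linear axis from 0, with circles for diabetic rats, squares for non-diabetic rats, and bars for the group mean and SD. Adcy6, Pde8b and the Leydig sum were lower in all 3 diabetic rats, while the groups overlapped by 1 rat for Prkar2b and for Pde6d.

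The Leydig sum, Adcy6 and Pde8b were lower in all 3 diabetic rats, while Prkar2b overlapped by 1 pair of rats. Within the diabetic group the Leydig sum was highest in rat 3 and lowest in rat 2. Prkar2b followed the same order, with 9.77 FPKM in rat 3 and 6.85 FPKM in rat 2, and so did Pde8b, with 1.64 and 1.51 FPKM. Adcy6 was highest in rat 3 too but lowest in rat 1. In the non-diabetic group the Leydig sum was highest in rat 2, while Prkar2b and Pde8b were highest in rat 1. Adcy6 was nearly level there in rats 2 and 3. Orders among 3 rats are given as a description. The part of the Leydig markers in these differences was not tested. The summed markers of Sertoli cells (84.1 to 86.9 against 78.4 to 92.2 FPKM) and of peritubular myoid cells (74.9 to 83.4 against 77.1 to 95.9 FPKM) overlapped. Those of endothelial cells (5.71 to 6.38 against 6.21 to 7.86 FPKM) and of macrophages (131 to 137 against 104 to 146 FPKM) overlapped as well. Most of the macrophage sum was Aif1, which averaged 105 and 87.5 FPKM, and 5 of the 6 macrophage markers had a negative log2 fold change. Csf1r, the receptor of macrophage colony-stimulating factor, was lower in the diabetic rats without overlap (log2 fold change -0.80; limma, adjusted p = 0.336), and so was Cd68 (-0.98; limma, adjusted p = 0.629). The spermatogonial markers summed to 57.4 to 68.7 FPKM in the diabetic rats and 53.4 to 57.3 FPKM in the non-diabetic rats, without overlap. Uchl1 made up most of that sum, at 47.5 ± 4.91 against 37.3 ± 3.07 FPKM (SD, n = 3 each), while 4 of the 6 spermatogonial markers had a negative log2 fold change and Kit was lower without overlap (-0.30; limma, adjusted p = 0.635). The part of these markers in the differences of the cyclic nucleotide genes was not tested either. The summed markers of spermatocytes (292 to 327 against 296 to 333 FPKM), of round spermatids (613 to 691 against 609 to 700.0 FPKM) and of blood (33.9 to 73.9 against 40.2 to 67.9 FPKM) overlapped.

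The catalytic subunits together had a lower level than the regulatory subunits together. Prkaca measured 34.2, 32.9 and 31.9 FPKM with diabetes and 35.9, 33.2 and 31.1 FPKM without, a log2 fold change of -0.015 with an interval of -0.18 to 0.15. Prkacb measured 6.49, 5.08 and 5.21 FPKM against 7.16, 6.51 and 4.51 FPKM, a log2 fold change of -0.095 with an interval of -0.54 to 0.35. The FPKM of the regulatory subunits together was 6.74 ± 0.117 times that of the catalytic subunits in the diabetic rats and 6.73 ± 0.677 times in the non-diabetic rats (SD, n = 3 each). Type I exceeded type II regulatory subunits 2.38 ± 0.207 times and 2.25 ± 0.0901 times, and these ranges overlapped.

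**Figure D4:**
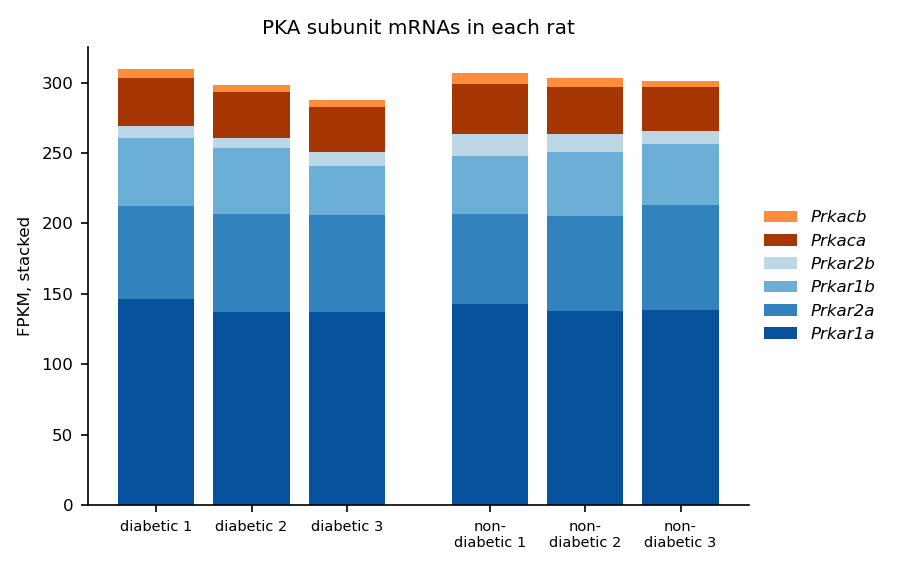
FPKM of the 6 PKA subunits stacked for each rat on a linear axis from 0, with regulatory subunits in blue and catalytic subunits in orange. The regulatory subunits summed to between 250.5 and 269 FPKM in every rat and Prkar1a was the tallest segment throughout, while Prkar2b was the thin segment that was largest in non-diabetic rats 1 and 2.

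Shares within each family were compared as well. Of 32 shares, 4 did not overlap between the groups, beside 13.0% of all genes tested whose FPKM did not overlap. Adcy6 held 0.413% ± 0.0263 of the cyclase FPKM in the diabetic rats and 0.634% ± 0.0678 in the non-diabetic rats (SD, n = 3 each). Pde8b held 1.64% ± 0.163 against 2.16% ± 0.142 of the cyclic AMP phosphodiesterases. The share of Adcy3 was higher, at 3.87% ± 0.293 against 3.61% ± 0.0382 of the cyclases. The share of Pde5a was lower, at 5.60% ± 1.42 against 7.48% ± 0.410 of the cyclic GMP group, whose summed FPKM averaged 18.5 and 15.7. Pde6d, the carrier of prenylated proteins, held 70.6% and 72.0% of that group in the diabetic and non-diabetic rats. Pde6h, an inhibitory subunit, was counted in it too, so the share of Pde5a is not a share among enzymes alone. The FPKM of Adcy3 and of Pde5a themselves overlapped between the groups. Each of the 4 had an exact permutation p of 0.1 and an adjusted p of 0.8 over the 32 shares. Prkar2b held 3.25% ± 0.636 against 4.77% ± 1.21 of the regulatory subunits, with overlap (exact permutation p = 0.2).

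On the cyclic GMP side, 3 of 9 genes with a Gucy symbol were tested, all of them subunits of the soluble enzyme that nitric oxide activates. Gucy1b3, the beta subunit, measured 3.88, 3.501 and 4.12 FPKM with diabetes and 4.54, 3.96 and 3.7995 FPKM without. Gucy1a3, its usual partner, measured 2.98, 3.04 and 3.91 FPKM against 3.31, 4.01 and 3.68 FPKM. Gucy1a2 measured 1.70, 1.24 and 1.75 FPKM against 1.93, 2.08 and 1.62 FPKM. All 3 were overlapping, with log2 fold changes of -0.094, -0.15 and -0.26 and intervals that included 0. The membrane guanylyl cyclases Gucy2c to Gucy2g and the subunit Gucy1b2 averaged at most 0.354 FPKM. The symbol rule did not take in the guanylyl cyclase-type receptors Npr1 and Npr2. These averaged 3.32 and 1.05 FPKM over all rats, and both overlapped between the groups. Prkg2, the membrane-bound cyclic GMP-dependent kinase, measured 0.0374, 0.0261 and 0.0456 FPKM against 0.0555, 0.0314 and 0 FPKM and was not tested. No row carried the symbol Prkg1, so the level of that other cyclic GMP-dependent kinase could not be read.

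Other genes of cyclic nucleotide signalling were read from a list of 87 symbols, of which 86 were found and 66 gene rows were tested. None met the study's criterion, against 1.24% of all genes tested. An unadjusted p below 0.05 in limma was seen for 3, all lower in the diabetic rats. Over all genes that share was 7.46%, with 4.99% in the lower direction. The median log2 fold change was -0.026, and 63 of the 66 intervals lay within 1, against 80.9% of all genes. No overlap was seen for 3 genes that were higher (Gnal, Pkig, Nr4a2) and 6 that were lower (Lhcgr, Gnai3, Pkia, Ropn1, Crtc1, Fhl5), a total of 9 of 66 against 13.0% of all genes.

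Among receptors and G proteins, Lhcgr, the luteinizing hormone receptor of Leydig cells and a gene of the Leydig list too, was the exception in size. It measured 2.32, 2.32 and 2.29 FPKM with diabetes and 4.45, 5.03 and 4.68 FPKM without, a log2 fold change of -0.999 (SE 0.11; adjusted p = 0.0559 in limma). The adjusted p ranged from 0.0110 to 0.304 over the alternatives. With a pseudocount of 0.01 in place of 0.1 the log2 fold change of Lhcgr was -1.03, past the study's criterion. Fshr, the follicle-stimulating hormone receptor of Sertoli cells, measured 2.34, 2.40 and 2.55 FPKM against 2.06, 2.39 and 2.20 FPKM, with overlap. The 15 rows of receptors and G proteins tested other than Lhcgr lay between -0.39 and 0.25 on the log2 scale.

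Pkia, an inhibitor protein that binds free PKA catalytic subunits, measured 0.671, 0.719 and 1.28 FPKM with diabetes and 1.42, 1.72 and 1.61 FPKM without. The groups did not overlap, and the log2 fold change was -0.81 (SE 0.27; limma, adjusted p = 0.575). Without diabetic rat 3 it was -1.08 (limma, adjusted p = 0.345), past the study's criterion, and with a pseudocount of 1 it was -0.46. The other inhibitors were far more abundant: Pkib averaged 126 ± 6.36 and 118 ± 11.4 FPKM and Pkig 58.2 ± 1.65 and 54.3 ± 0.620 FPKM in the diabetic and non-diabetic rats (SD, n = 3 each). The anchors of the sperm fibrous sheath were among the highest levels read, with Akap4 at 1049 ± 52.1 and 1056 ± 26.8 FPKM and Akap3 at 485 ± 17.1 and 505 ± 9.72 FPKM (SD, n = 3 each), and both overlapped. Hcn3, a channel of the family that cyclic nucleotides gate, measured 2.40, 2.68 and 3.09 FPKM against 3.07, 4.04 and 3.83 FPKM, a log2 fold change of -0.41 (limma, adjusted p = 0.649), with overlap by 1 pair of rats.

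**Figure D5:**
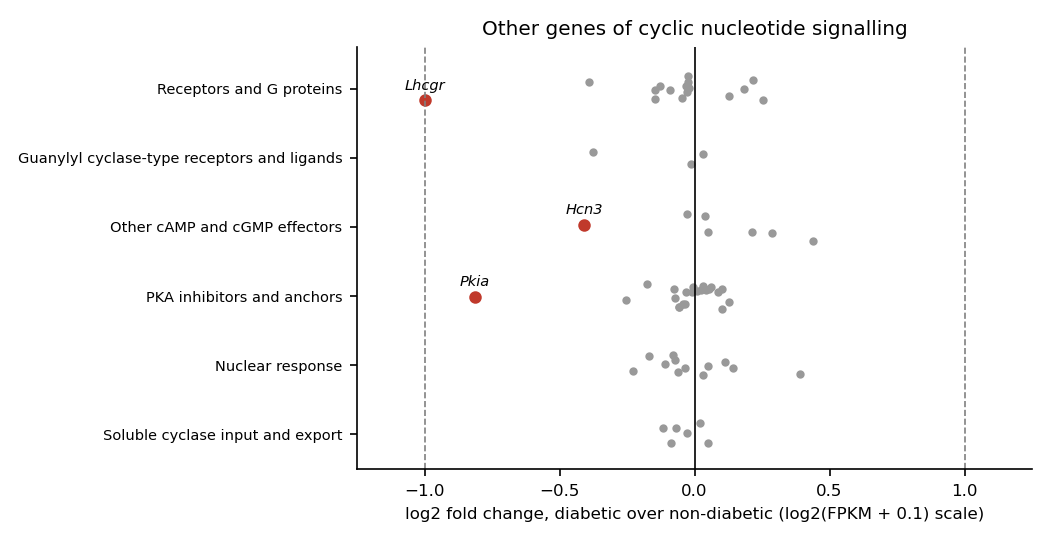
Log2 fold change (diabetic over non-diabetic, log2(FPKM + 0.1) scale) of the 66 other pathway gene rows tested, 1 point each, by sub-list; larger named points mark an unadjusted p below 0.05 in limma and dashed lines a log2 fold change of 1 in size. Lhcgr at -0.999, Pkia at -0.81 and Hcn3 at -0.41 were the 3 points marked, and the median of all points was -0.026.

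In the nucleus, cyclic AMP acts through CREB and, in spermatids, through the testis activator form of Crem with its partner Fhl5. Crem measured 35.5, 34.2 and 35.2 FPKM with diabetes and 37.8, 36.2 and 33.5 FPKM without. Fhl5 measured 290, 291 and 306 FPKM against 328, 319 and 310.1 FPKM, without overlap but with a log2 fold change of only -0.11 (limma, adjusted p = 0.712). Nr4a2, an early target gene of the pathway, measured 1.31, 1.59 and 1.32 FPKM against 1.07, 1.03 and 1.03 FPKM, also without overlap (log2 fold change 0.39; limma, adjusted p = 0.712).

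CREB and CREM proteins bind the cyclic AMP response element, and its letters were looked for in the promoters of the genes themselves, from 250 bases before to 50 bases after each RefSeq start (build GRCr8; the gene table names no build and gives no positions). Promoters were given for 35 of the 51 genes, 49 in all. The full element TGACGTCA was in none of the 49, against 1.83% of all 33469 promoters. Its core TGACG, read on either strand (CGTCA), was in 10 of the 49 promoters, or 20.4%, against 21.2% of all promoters. These are matches of letters and not measured binding. The matches of the 4 most abundant genes that had any are shown, as 25 bases in the direction of the gene with this core in capitals: Pde8a at chr1:144575373-144575397 (plus strand), Prkaca at chr19:41083254-41083278 and chr19:41083368-41083392 (minus strand), Pde4a at chr8:27966966-27966990 and chr8:27999385-27999409 (plus strand), and Pde10a at chr1:54765758-54765782 and chr1:54765833-54765857 (minus strand).
Pde8a, 86 bases upstream: ccgcgcttccTGACGcgagacccgc
Prkaca, 79 bases upstream: actgcgggggCGTCAcggacagagg
Prkaca, 193 bases upstream: ctgcaactcgCGTCActcatccagg
Pde4a, 11 bases upstream: cgtcggcgcaTGACGttcgtcctta
Pde4a, other start, 18 bases upstream: cacagctcgaCGTCAggctggggag
Pde10a, 104 bases upstream: aggctgcagaCGTCAtcgcctcctg
Pde10a, 179 bases upstream: gtccggctgcTGACGtccaagcctc
None of these 4 genes had an interval that excluded 0.

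Soluble cyclase depends on bicarbonate and on partners in the sperm tail. Slc9c1, the sperm sodium-proton exchanger, averaged 79.5 ± 7.37 and 76.7 ± 2.22 FPKM, and Slc26a8, an anion transporter of sperm, 65.4 ± 6.49 and 64.4 ± 4.27 FPKM in the diabetic and non-diabetic rats (SD, n = 3 each). All 6 genes of this sub-list that were tested overlapped between the groups, with log2 fold changes between -0.12 and 0.049.

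The precision followed the level. Among the 14 cyclic nucleotide genes that averaged at least 10 FPKM, the median coefficient of variation between rats was 7.63% in the diabetic and 4.39% in the non-diabetic group. Among the 19 that averaged between 0.5 and 10 FPKM it was 10.9% and 10.7%.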

How the data were processed

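Testis RNA-Seq libraries of 3 diabetic and 3 non-diabetic rats were analysed, with groups and replicate numbers from the sample labels. The labels do not say that replicates are separate animals, so p-values refer to the spread between these samples. In limma this spread was moderated for each gene towards a trend with level over all genes tested. Per the labels, poly(A) RNA was sequenced in paired-end mode on an Illumina HiSeq instrument. The sample titles also name circRNA and lncRNA, and the authors describe extraction of total RNA without a poly(A) selection. How the RNA was selected is therefore not settled here. The authors used FastQC for read quality, BWA for comparison with rRNA sequences and STAR for alignment, then assembled transcripts with StringTie and screened transcripts with DESeq2. Versions and the genome build are not given in the sources used here. The deposited values are FPKM per gene, calculated by the authors, and hold no counts, so the DESeq2 screen could not be repeated. Depth in reads is unknown. Relative depth, from the steps between low values, was 0.966 to 1.09 in the diabetic and 0.893 to 1.02 in the non-diabetic rats.

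Values were transformed to log2(FPKM + 0.1), which understates the fold change of low genes. The 20338 genes that averaged 0.5 FPKM or more were compared with limma 3.58.1 (lmFit, eBayes with trend) in R 4.3.3 by a two-sided test, and p-values were adjusted over all of them by the Benjamini-Hochberg method. Single genes, shares and sums were compared by exact permutation (scipy 1.17.1, Python 3.11.15). The steps were tested on simulated data with 20338 genes, of which 200 were changed. The study's criterion was met by 95.5% of the changed genes and also by 149 unchanged genes. All changed genes were given log2 fold changes beyond 1 in size, with independent normal noise. The recovery of smaller differences, such as most of those reported here, was not tested.

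The rule for naming took genes with p below 0.05 in limma, genes whose groups did not overlap and differed by at least 0.3 on the log2 scale, the 3 highest of each role, and from the list of other pathway genes the 5 with the smallest p. The remaining genes of the families and of the lists were named after their values were seen. The genes and lists were chosen with earlier results of these data known. Alternatives were other pseudocounts, filters, scalings and eBayes settings, a replicate block, protein-coding genes only, summed symbols and leaving out each rat. Gucy1a3 and Gucy1b3 were matched to RefSeq by synonyms.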

Additional observations from a re-analysis of the deposited data

How the results depend on the processing

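Under 17 alternatives, 471 of 492 values of the 29 single genes kept their direction and their side of an adjusted p of 0.05. All genes past the criterion numbered 253, and 91 with a pseudocount of 1, 621 with no filter, 90 with protein-coding genes only and 246 to 335 with 1 rat left out. Genes with an adjusted p below 0.05 numbered 7, and 3 with no filter, 12 with eBayes without the trend, 35 with protein-coding genes only, 15 with the same symbols summed and 0 to 14 with 1 rat left out. Genes with an unadjusted p below 0.05 numbered 1517, and 1131 to 1586 with 1 rat left out. For the cyclic nucleotide genes the count past the criterion was 0, and 0 to 1 with 1 rat left out (Pde6h without diabetic rat 1). The count with an unadjusted p below 0.05 was 2, and 1 with a filter at a mean of 1 FPKM, 1 rescaled to TPM, 3 with no filter (Pde6c joined), 3 with protein-coding genes only (Pde8b joined) and 0 to 2 with 1 rat left out. The count stayed at 2 with median-ratio scaling, with Pde6d in place of Adcy6, and with eBayes without the trend, with Pde8b in place of Prkar2b. None had an adjusted p below 0.05 in limma under any of the 17 alternatives. Their median log2 fold change was -0.0072, and -0.057 to 0.0042 with 1 rat left out. For the other pathway genes the count past the criterion was 0, and 1 (Lhcgr) with a pseudocount of 0.01 or rescaled to TPM, and 0 to 1 with 1 rat left out (Pkia without diabetic rat 3, otherwise Lhcgr). Their count with an unadjusted p below 0.05 was 3, and 1 to 4 with 1 rat left out. Leaving out 1 rat moved the share of Prkar2b between -2.16 and -0.957 percentage points, that of Pde8b between -0.606 and -0.438 and that of Adcy6 between -0.259 and -0.195. The direction of 18 values was reversed, and the largest of them was 0.13 for Prkar1b without diabetic rat 3. Median-ratio scaling gave log2 fold changes of 0.0086 for Prkaca, 0.023 for Prkar2a and 0.0072 for Prkar1b. Leaving out 1 rat gave ranges that crossed 0 for Adcy3 (-0.0043 to 0.058), Pde4a (-0.068 to 0.18), Pde3b (-0.0072 to 0.070), Pde4dip (-0.25 to 0.075), Prkaca (-0.065 to 0.038), Prkacb (-0.29 to 0.037), Prkar1a (-0.030 to 0.0195), Prkar2a (-0.056 to 0.064) and Prkar1b (-0.099 to 0.13). The cause of these changes was not tested. With the replicate number as a block, 1 cyclic nucleotide gene (Prkar2b) had an unadjusted p below 0.05 and 4 of all genes an adjusted p below 0.05. Between rats of the same replicate number, the correlations of deviations from the group means were 0.106, 0.0153 and 0.0979. With 3 rats per group these values cannot decide whether the replicate numbers mark a pairing. The number of rats and the unknown read depth limit what can be read from genes near 0.5 FPKM.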
